A study of Homo sapiens with 15 samples.

Results

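The genes described here are 50 genes of the G1/S transition and of DNA replication, followed in NCI-H1975, a human lung cancer line of the non-small cell type in long use that carries mutated EGFR. They were chosen by symbol, with no measured value in the rule, and all 50 were found among the 61248 loci of the deposited table. By role they comprise 11 genes of origin licensing, 6 of helicase activation, 20 of DNA synthesis at the fork, 5 of nucleotide supply, 4 of G1/S control and 4 of chromatin replication. Messenger RNA was sequenced in 15 libraries that form 5 groups of 3. The almonertinib group was treated with a drug that blocks the kinase of EGFR, the EGF group with the ligand of the receptor. The siEGFR group received an siRNA against EGFR, the siNC group is its control siRNA, and the last group is labelled only as control. All groups are the same cell line, and the labels give no dose, time, serum condition or transfection detail. They do not say whether replicates were separate cultures, so p-values cover the spread between libraries alone, and that spread may be technical.

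Before a cell copies its genome, the origin recognition complex, CDC6 and CDT1 load the MCM2-7 helicase onto DNA in G1, a step called licensing. Cyclin E with CDK2 releases E2F transcription factors from the retinoblastoma protein, and E2F factors switch on many of the genes that replication needs. In S phase, CDC45 and the GINS complex join MCM2-7 to form the active helicase, and a clamp, its loader and the polymerases copy both strands. In lung cancer cells driven by EGFR, signalling from the receptor feeds into this step through the D-type cyclins.

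Values are FPKM, fragments per kilobase of gene corrected for sequencing depth, with no correction for differences in RNA composition. They summed to between 285832 FPKM (siEGFR 1) and 324109 FPKM (almonertinib 3) per library. Levels of different genes also depend on the gene length used. For RRM2 the deposited values imply 9153 bases, against 5323 exon bases in GENCODE v29. The libraries held 18009903 to 34908302 reads, as recovered from the steps between deposited values, and 35 of the 50 genes had more than 100 reads in every library. The lowest count was 8 reads, for CCNE2. Changes are log2 differences of FPKM + 1 with their standard errors (SE), tested with limma across the 14999 genes that reached 1 FPKM in 3 or more libraries. Group means are given ± SD (n = 3 libraries). A gene is called where its Benjamini-Hochberg adjusted p is under 0.05. All 50 genes passed this filter, CCNE2 and E2F2 only through siRNA libraries, and these 2 had to be higher there. EGFR, the target of the siRNA, had 29.9, 28.6 and 28.9 FPKM in siEGFR libraries, against 49.4, 49.4 and 49.8 FPKM in siNC libraries (log2 change -0.75 ± 0.11, adjusted p = 0.00165). Control libraries had 28, 22.3 and 22.8 FPKM of EGFR, so every siEGFR library lay above every control library. Almonertinib libraries had 19.2, 15.4 and 15.5 FPKM of EGFR (log2 change against control -0.52 ± 0.11, adjusted p = 0.00521), and EGF libraries had 30.2, 22.1 and 23.9 FPKM. Within their groups, the libraries almonertinib 3, EGF 2 and control 1 stood apart from the other two, and results that rest on them are given with and without them. Epithelial markers summed to between 928 and 1160 FPKM in every library, most of it KRT19, KRT8 and KRT18, and 5 of 10 leukocyte markers stayed below 0.1 FPKM everywhere, PTPRC, the pan-leukocyte phosphatase, among them. CD14, a monocyte marker, averaged 38.1 FPKM in almonertinib, 36.5 FPKM in EGF, 3.46 FPKM in siEGFR, 6.99 FPKM in siNC and 35.4 FPKM in control libraries.

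EGF-treated cells carried more messenger RNA of nearly the whole replication machinery than control cells. Of the 50 genes, 49 rose and none fell, where 49.3% of all tested genes were called in either direction and 22% rose. The median log2 change over the 50 genes was 0.82, against -0.04 over all tested genes. On this scale 17 genes rose at least 2-fold. Of the 14999 tested genes, 705 were called with a change of at least 2-fold in either direction. In 49 genes every EGF library lay above every control library, a pattern that 22.3% of all tested genes showed. RFC1, the large subunit of the clamp loader, was the exception at 0.36 ± 0.16 (adjusted p = 0.0787). Among markers of other cell types, the fibroblast marker sum, mostly COL1A2, was 193 to 214 FPKM in EGF libraries and 337 to 353 FPKM in control libraries. The epithelial markers CDH1, NKX2-1 and EPCAM fell by 1.09, 0.54 and 0.34 with EGF, while the endothelial marker CDH5 fell by 1.05 and the leukocyte marker CSF1R by 0.33. Of the 8 epithelial markers, 3 fell and none rose, and 1 of 2 tested endothelial and 1 of 2 tested leukocyte markers fell. With no call, KRT7, KRT8 and KRT18 averaged 58.5, 253 and 167 FPKM in EGF and 56.4, 231 and 155 FPKM in control libraries. Also uncalled, KRT19 and NAPSA averaged 520 and 0.392 FPKM in EGF and 590 and 0.423 FPKM in control libraries. Endothelial PECAM1 averaged 1.34 and 1.21 FPKM and CD14 36.5 and 35.4 FPKM in EGF and control libraries. The part of these markers in the result was not tested. In bulk RNA, a changed share of replicating cells and a changed amount of each RNA per cell cannot be told apart. This holds here and in every comparison that follows.

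The 2 siRNA groups stood still higher. In siNC against control, 48 genes rose and none fell, where 66% of all tested genes were called and 34.4% rose. The median log2 change was 1.5, against 0.03 over all tested genes. At least 2-fold higher were 39 genes, CCNE2 and E2F2 among them. Of the 14999 tested genes, 1879 were called with a change of at least 2-fold in either direction. In 48 genes every siNC library lay above every control library, as in 35.5% of all tested genes. Without CCNE2 and E2F2, whose rise in siNC the filter fixed, 46 of 48 genes rose and 46 had no overlap. RFC1 and POLD2, the second subunit of polymerase delta, were not past the threshold, with changes of 0.28 ± 0.16 and 0.12 ± 0.11. The labels do not say how siNC and control cultures differed beyond the siRNA, so transfection and any other difference in culture cannot be told apart. Other transcripts moved in the same comparison: CD14 averaged 6.99 FPKM in siNC libraries and 35.4 FPKM in control libraries. KRT7, an epithelial keratin, averaged 303 and 56.4 FPKM in siNC and in control libraries, while KRT19 averaged 335 and 590 FPKM. Of the 8 epithelial markers, 6 rose and 1 fell. The fibroblast marker sum was 138 to 146 FPKM in siNC libraries and 337 to 353 FPKM in control libraries, nearly all of it COL1A2. DCN and LUM were below 0.1 FPKM in every library, and COL1A1 averaged 8.61 FPKM in siNC and 6.80 FPKM in control libraries. The endothelial marker sum was 0.664 to 0.776 FPKM in siNC libraries and 3.18 to 3.80 FPKM in control libraries. The part of these shifts in the replication genes was not tested.

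The kinase inhibitor gave a smaller and mixed picture. In almonertinib against control, 12 genes fell and 1 rose, where 30.1% of all tested genes were called (18% lower and 12.1% higher). The 13 called genes are 26% of the 50, and the 12 that fell are 24%. The share called among the 50 was above that of all tested genes in 11 of 18 alternative settings and below it in 7, so its order against the background is not settled. The median log2 change was -0.14, against -0.06 over all tested genes. The genes that fell were UHRF1, CDC45, RRM2, MCM6, ORC6, TYMS, CDC6, MCM10, MCM4, MCM3, POLE2 and POLA1. The gene that rose was CDT1. In 14 genes every almonertinib library lay below every control library and in 1 above, where 20.6% and 14.6% of all tested genes did so. Of the 37 genes not past the threshold, 30 had a negative value. The share of all tested genes with a negative value was not counted, and signs of small changes depend on scaling. With TPM scaling the median over the 50 genes was -0.248, against -0.153 over all tested genes. With median-ratio scaling these medians were -0.065 and 0.008. With only the 6 libraries of the 2 groups in the fit, 5 calls were left (CDT1, UHRF1, CDC45, RRM2 and ORC6), where 5.71% of all tested genes were called. Without almonertinib 3 there were 20, where 37.2% of all tested genes were called, and with TPM scaling 24, where 33.1% were. The epithelial markers KRT7 and CDH1 fell with almonertinib by 0.72 and 0.50 and the endothelial marker PECAM1 by 0.38, while COL1A1 and NKX2-1 rose by 0.51 and 0.18. The part of these markers in the result was not tested.

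The EGFR siRNA left the replication genes near the level of its control. In siEGFR against siNC none of the 50 genes was called by limma, where 5.46% of all tested genes were (2.27% higher and 3.19% lower). At an unadjusted p under 0.05 there were 8, all of them higher in siEGFR. The share of all tested genes at that cut was not counted. The median log2 change was 0.08, against 0.01 over all tested genes. The values ran between -0.12 for TYMS, thymidylate synthase, and 0.26 for POLA2, the second subunit of polymerase alpha (adjusted p = 0.0775). All 95% intervals lay between -0.41 and 0.43. The median SD of the 50 genes on the log2 scale was 0.041 in siEGFR and 0.045 in siNC libraries. It was 0.105 in almonertinib, 0.092 in EGF and 0.119 in control libraries. The fit took 1 spread per gene from all 15 libraries. By these medians, intervals are wider for siEGFR against siNC, and narrower for almonertinib against control, than the compared groups' own spread would give. In 24 genes all siEGFR libraries exceeded all siNC libraries and in none were all lower, where 22.7% and 17.9% of all tested genes did so. When only these 6 libraries entered the fit, 11 genes were called, all higher in siEGFR (20.5% of all tested genes were called then), among them POLA2, MCM3 and ORC6. No gene was called by limma-voom on the recovered reads, which also pooled the spread of all 15 libraries. The markers EPCAM, CDH1 and CD14 fell in siEGFR against siNC by 0.78, 0.62 and 0.85, and COL1A1 rose by 0.68. Of the 8 epithelial markers, 4 fell and none rose. With no call, KRT8 averaged 278 FPKM in siEGFR and 228 FPKM in siNC libraries, and KRT18 228 and 195 FPKM. CD14 was 1 of 2 tested leukocyte markers. The other, CSF1R, was not called and averaged 2.42 FPKM in siEGFR and 1.92 FPKM in siNC libraries. The part of these markers in the result was not tested.

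**Figure D1:**
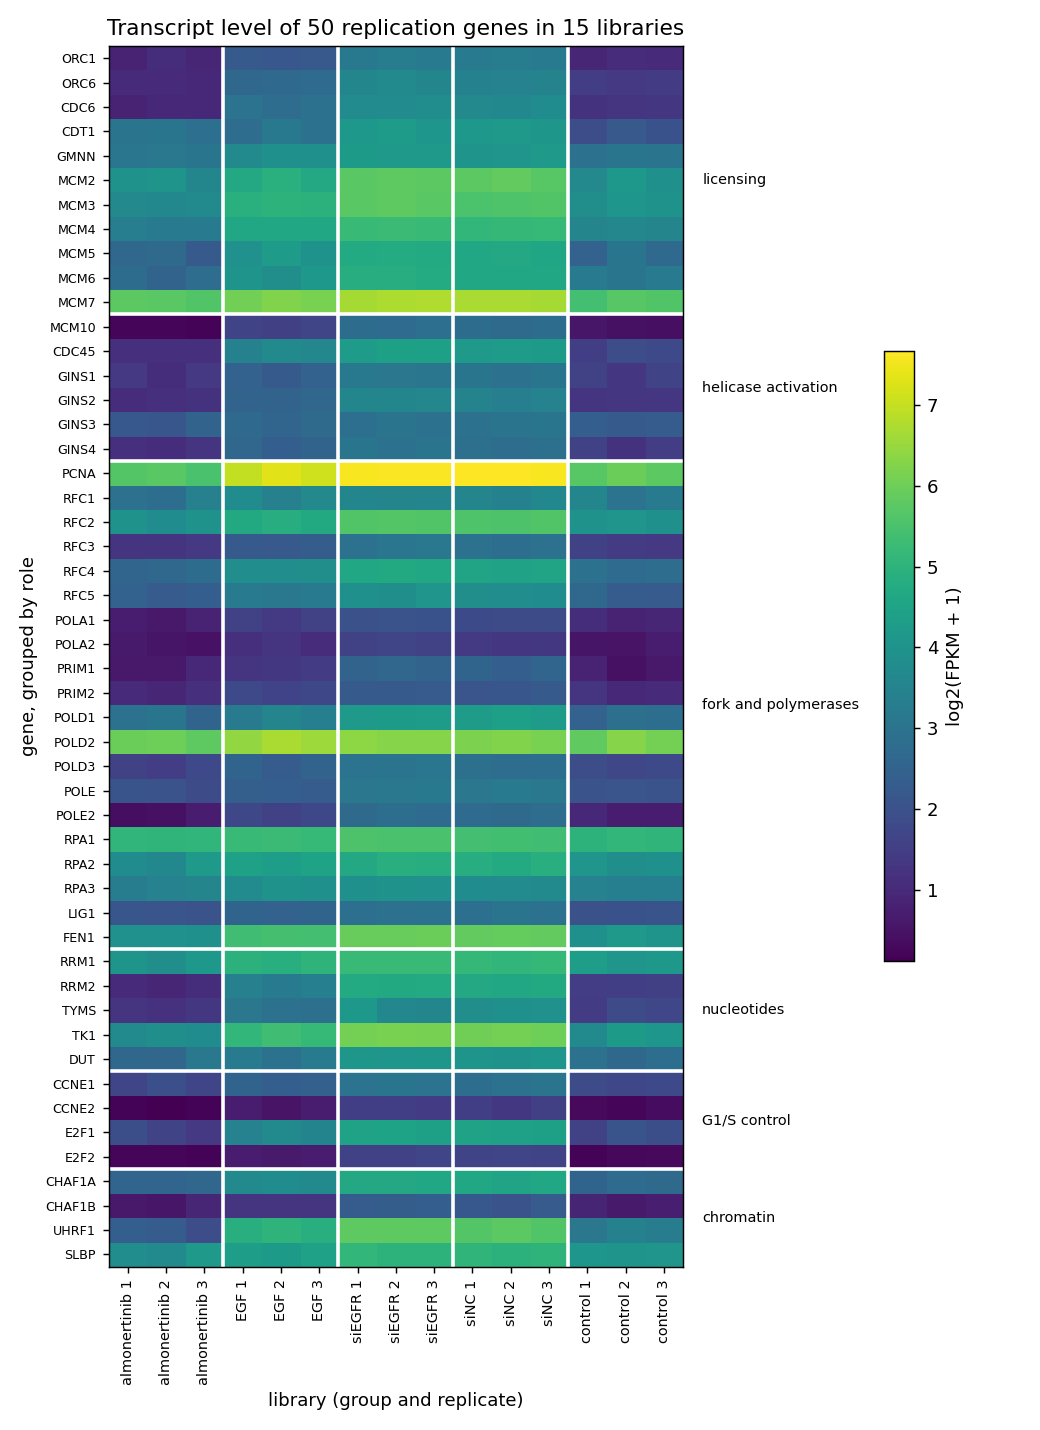
Transcript level, as log2(FPKM + 1), of the 50 genes (lines, grouped by role) in the 15 libraries (columns, 3 per group). The siEGFR and siNC columns are the brightest for most genes, EGF columns lie between, and almonertinib and control columns are the darkest; CDT1 is brighter in almonertinib than in control.

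Seen together, the order of group means was the same in 31 of the 50 genes: siEGFR highest, then siNC, EGF, control and almonertinib. In 8 further genes siNC and siEGFR changed places at the top. CCNE2 is among the 31 and E2F2 among the 8, and for both the filter fixed the siRNA groups at the top. The share of all tested genes with this order was not counted. RFC1 and POLD2 were the only 2 genes with their highest mean in EGF. As a median over the 50 genes, the mean level was 25.1% of the siNC level in almonertinib libraries, 60.9% in EGF libraries, 106% in siEGFR libraries and 28.05% in control libraries. The groups almonertinib, EGF and siNC are all compared with the same 3 control libraries. Of the 50 genes, 35 rose with EGF and in siNC with no call in the remaining 2 comparisons, CCNE2 and E2F2 among them. Another 12 rose with EGF and in siNC and fell with almonertinib. Summed over the 50 genes, the level was 414 to 419.6 FPKM in almonertinib libraries, 819.6 to 899 FPKM in EGF libraries, 1306 to 1320 FPKM in siEGFR libraries, 1250 to 1267 FPKM in siNC libraries and 426 to 482 FPKM in control libraries.

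**Figure D2:**
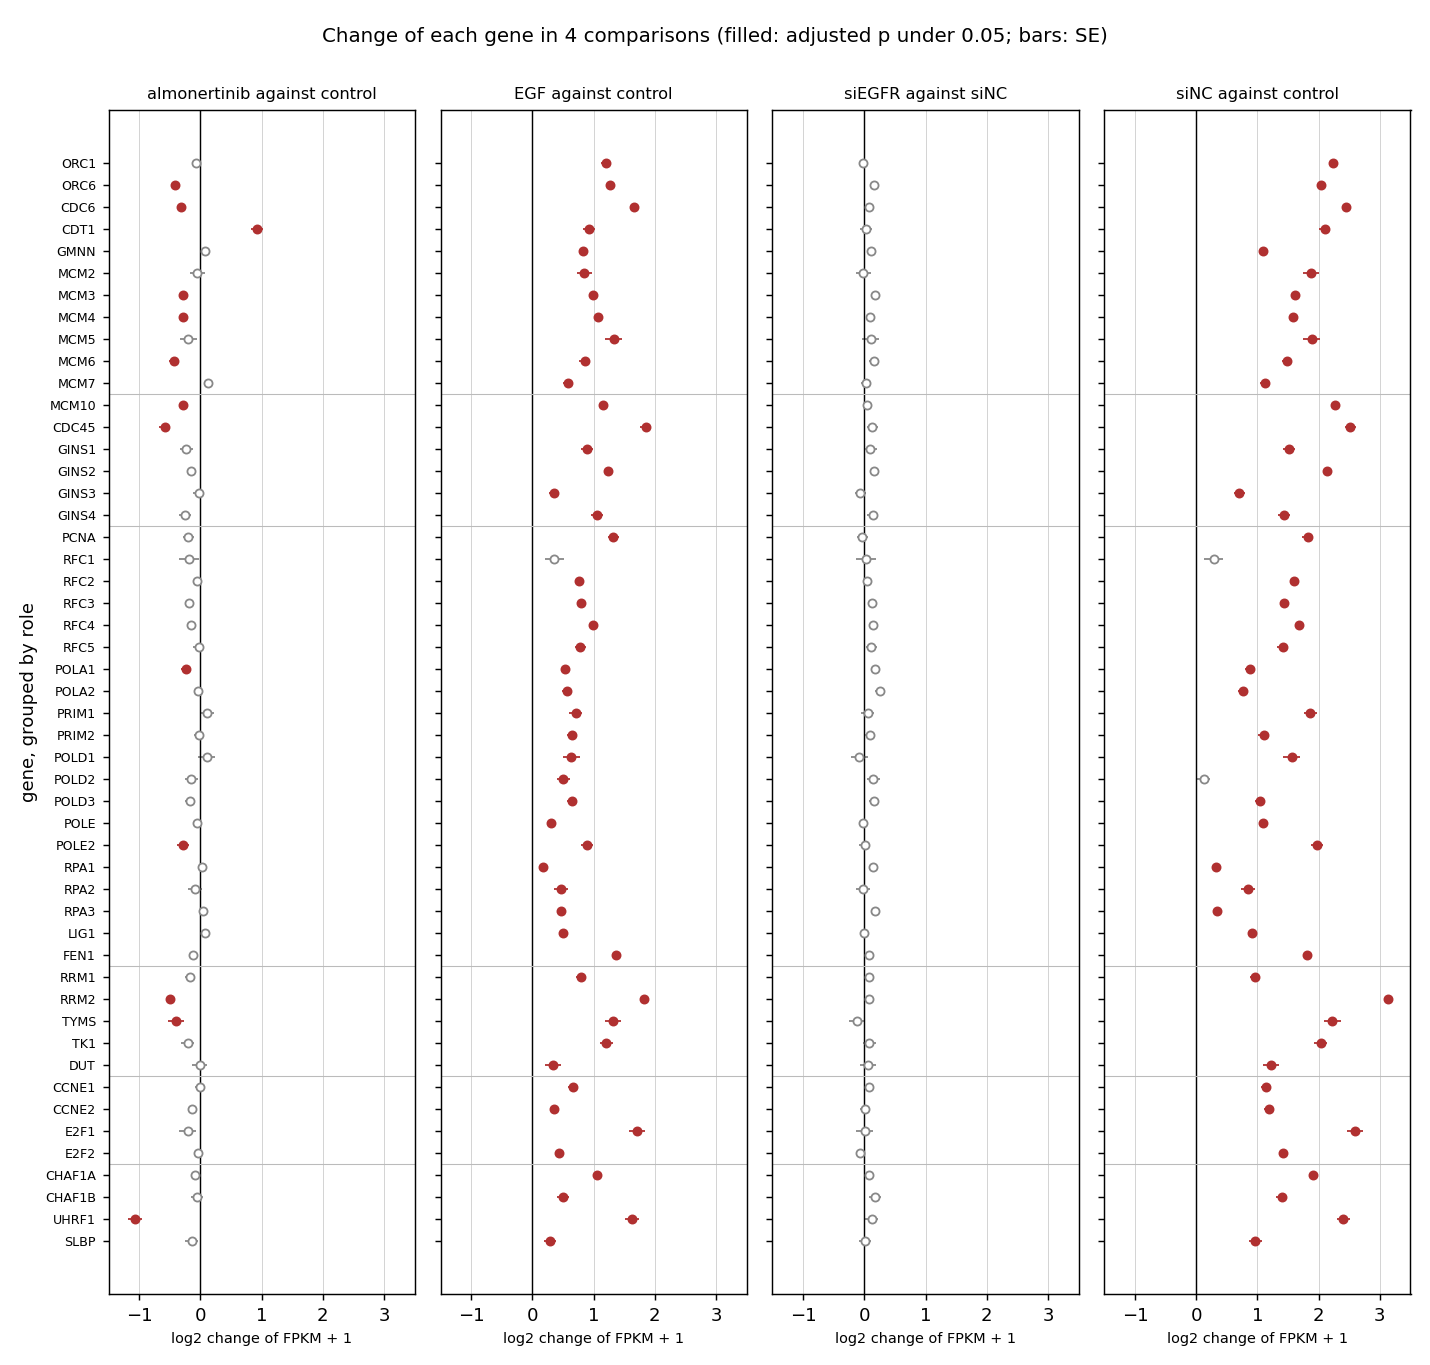
Log2 change of FPKM + 1 with its SE for each of the 50 genes in 4 comparisons. Filled red points have an adjusted p under 0.05: 13 in almonertinib against control, 49 in EGF against control, none in siEGFR against siNC and 48 in siNC against control.

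The start regions of these genes often held the letters that E2F factors bind. A promoter of 300 bases, 250 before and 50 after the start, was matched by symbol in RefSeq (build GRCh38.p14) for 43 of the 50 genes. No entry was matched for CCNE2, GINS4, MCM4, MCM5, POLD3, RPA2 and RPA3. The deposited values were made on hg19, and coordinates here are those of RefSeq alone. Both strands were searched for TTTCCCGC, TTTCGCGC, TTTGCCGC and TTTGGCGC. At least 1 of them was in 20 of 43 promoters (46.5%), in 908 of 27305 promoters of all genes (3.33%) and in 541 of 9918 promoters of tested genes (5.45%). With the first letter dropped from each, 30 of 43 promoters held a match (69.8%), against 21.1% of those of tested genes. The CCAAT box (CCAAT) was in 53.5% of the 43 promoters and in 36.8% of those of tested genes, the GC box (GGGCGG) in 72.1% and 70.5%, and the CHR element (TTTGAA or TTCGAA), which is known from genes of mitosis, in 4.65% and 11.1%. Some E2F words overlap each other, as in MCM2 and MCM6. Licensing genes held a site in 6 of 9 promoters (CDC6, CDT1, MCM2, MCM3, MCM6 and MCM7), nucleotide genes in 1 of 5 (TYMS). Of 27 sites in all, 17 began within 100 bases before the start, 6 farther upstream and 4 after it. These matches are a description of letters in these windows and not of binding.

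Printed here, 5' to 3' on the strand of the gene and with E2F matches in capitals, are the promoters of 6 genes that the results turn on: the loader CDC6, the helicase subunit MCM3, E2F1 itself, CDT1 and UHRF1, which moved in opposite directions with almonertinib, and RRM2, which had the largest change in siNC and no match. CDC6 is at chr17:40287629-40287928 (+ strand), MCM3 at chr6:52284693-52284992 (- strand), E2F1 at chr20:33686336-33686635 (- strand), CDT1 at chr16:88803539-88803838 (+ strand), UHRF1 at chr19:4909251-4909550 (+ strand) and RRM2 at chr2:10122489-10122788 (+ strand).
CDC6: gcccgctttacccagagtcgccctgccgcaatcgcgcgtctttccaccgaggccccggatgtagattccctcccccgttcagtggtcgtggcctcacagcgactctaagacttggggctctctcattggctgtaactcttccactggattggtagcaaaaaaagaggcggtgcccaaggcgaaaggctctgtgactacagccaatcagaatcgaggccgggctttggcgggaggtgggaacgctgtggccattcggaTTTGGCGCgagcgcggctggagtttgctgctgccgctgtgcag
MCM3: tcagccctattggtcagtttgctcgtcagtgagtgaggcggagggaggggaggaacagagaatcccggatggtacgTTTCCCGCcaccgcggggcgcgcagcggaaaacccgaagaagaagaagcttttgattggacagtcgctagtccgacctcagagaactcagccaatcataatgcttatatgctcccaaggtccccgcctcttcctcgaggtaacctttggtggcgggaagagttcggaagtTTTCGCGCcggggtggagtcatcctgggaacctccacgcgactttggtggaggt
E2F1: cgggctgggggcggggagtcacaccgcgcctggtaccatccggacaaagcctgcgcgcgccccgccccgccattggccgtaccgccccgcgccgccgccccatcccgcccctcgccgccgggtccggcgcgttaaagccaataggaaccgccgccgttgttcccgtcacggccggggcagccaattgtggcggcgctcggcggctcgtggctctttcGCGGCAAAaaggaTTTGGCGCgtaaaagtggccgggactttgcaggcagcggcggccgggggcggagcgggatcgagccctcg
CDT1: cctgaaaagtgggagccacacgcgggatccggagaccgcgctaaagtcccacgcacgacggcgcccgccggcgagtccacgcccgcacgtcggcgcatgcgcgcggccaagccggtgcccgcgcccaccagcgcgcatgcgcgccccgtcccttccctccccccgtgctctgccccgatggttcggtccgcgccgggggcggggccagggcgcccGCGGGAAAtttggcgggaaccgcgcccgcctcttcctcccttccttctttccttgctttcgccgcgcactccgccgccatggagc
UHRF1: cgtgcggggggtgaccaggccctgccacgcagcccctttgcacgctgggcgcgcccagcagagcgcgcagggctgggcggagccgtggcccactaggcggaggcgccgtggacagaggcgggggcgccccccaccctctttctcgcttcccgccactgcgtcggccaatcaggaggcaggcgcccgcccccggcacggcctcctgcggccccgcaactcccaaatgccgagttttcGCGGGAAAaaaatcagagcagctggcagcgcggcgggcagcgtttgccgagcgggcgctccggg
RRM2: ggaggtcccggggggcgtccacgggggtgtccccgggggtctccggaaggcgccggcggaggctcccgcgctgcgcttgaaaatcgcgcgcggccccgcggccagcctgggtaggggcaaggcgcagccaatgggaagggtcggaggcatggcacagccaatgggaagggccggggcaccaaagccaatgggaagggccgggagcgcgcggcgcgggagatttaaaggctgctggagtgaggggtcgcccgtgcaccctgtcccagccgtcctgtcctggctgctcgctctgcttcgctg

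**Figure D3:**
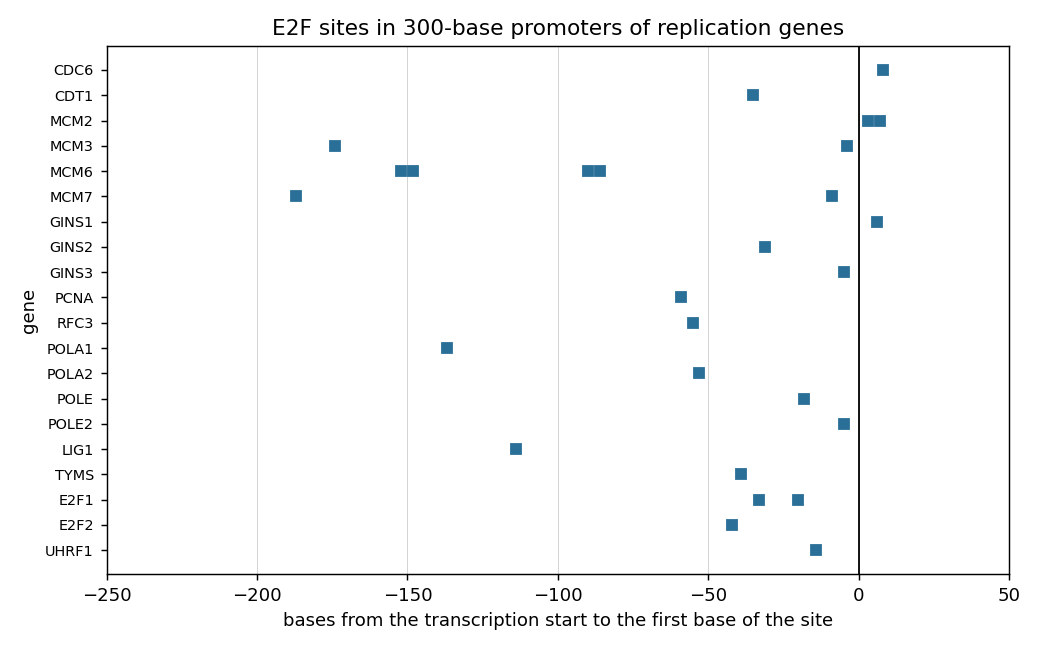
Position of each of the 27 E2F matches (squares) in the 20 promoters that hold one, in bases from the transcription start (line at 0) to the first base of the match. Most squares lie within 100 bases before the start; MCM6 has 4 and MCM3, MCM7, MCM2 and E2F1 have 2 each.

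Set side by side, genes with and without a match had close medians. The median log2 change with EGF was 0.87 over the 20 genes with a match and 0.78 over the 23 without. In siNC against control the medians were 1.57 and 1.56, and in almonertinib against control -0.19 and -0.09. Both CDT1 (0.93) and UHRF1 (-1.07), on the log2(FPKM + 1) scale the most raised and most lowered gene with almonertinib, were among the 20 with a match. These medians are given with no test.

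Licensing begins with the origin recognition complex and CDC6. All 11 licensing genes rose with EGF and in siNC, by a median log2 change of 0.99 and 1.88; with almonertinib 5 fell and 1 rose. ORC6, the smallest subunit of the origin recognition complex, had 1.04, 1.07 and 0.991 FPKM in almonertinib libraries and 5.36, 5.51 and 5.81 FPKM in EGF libraries, against 1.81, 1.59 and 1.74 FPKM in control libraries. It had 11.1, 11.9 and 10.9 FPKM in siEGFR libraries, against 9.86, 10.1 and 10.4 FPKM in siNC libraries. The almonertinib libraries lay below all others (log2 change -0.42 ± 0.05, adjusted p = 0.000141), and the EGF libraries between control and siRNA libraries (log2 change 1.27 ± 0.05, adjusted p = 1.17e-09). CDC6, the ATPase that brings MCM2-7 to origins, had 0.832, 0.941 and 0.991 FPKM in almonertinib and 6.91, 6.04 and 6.77 FPKM in EGF libraries, against 1.33, 1.36 and 1.47 FPKM in control libraries. In siEGFR libraries it had 12.6, 12.5 and 13.1 FPKM, against 11.6, 11.5 and 12.9 FPKM in siNC libraries. Its single E2F match begins 8 bases into the transcript in the printed promoter. CDC6 fell with almonertinib (log2 change -0.31 ± 0.06, adjusted p = 0.00283), rose 4.74-fold in mean FPKM with EGF (log2 change 1.66 ± 0.06, adjusted p = 5.48e-10) and was 8.66-fold higher in siNC than in control (log2 change 2.44 ± 0.06, adjusted p = 6.53e-12). The call for almonertinib was lost when only the 2 groups entered the fit.

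CDT1, the partner of CDC6 in helicase loading, broke from the rest. It had 7.12, 7.24 and 6.31 FPKM in almonertinib and 6.08, 7.93 and 6.62 FPKM in EGF libraries, against 2.73, 3.70 and 3.04 FPKM in control libraries. The almonertinib and EGF libraries overlapped, and both groups lay above every control library. It rose by 0.93 ± 0.10 with almonertinib (adjusted p = 2.97e-05) and by 0.92 ± 0.10 with EGF (adjusted p = 4.85e-06). The almonertinib call held in all 18 alternative settings. In siEGFR libraries CDT1 had 16.8, 18.1 and 16.1 FPKM, against 16.5, 17.3 and 16.3 FPKM in siNC libraries, and these groups overlapped. Geminin (GMNN), the protein that holds CDT1 inactive, was not called with almonertinib: it had 7.38, 7.73 and 7.26 FPKM in almonertinib and 12.2, 13.9 and 13.99 FPKM in EGF libraries, against 6.76, 7.33 and 7.04 FPKM in control libraries. Almonertinib and control libraries overlapped for GMNN (log2 change 0.07 ± 0.06, adjusted p = 0.404), while it rose with EGF (log2 change 0.83 ± 0.06, adjusted p = 2.58e-07). It had 17.8, 17.2 and 17.6 FPKM in siEGFR libraries, against 15.3, 15.5 and 17.5 FPKM in siNC libraries. The ratio of CDT1 to GMNN, both in FPKM, was 0.870 to 0.965 in almonertinib libraries, 0.473 to 0.569 in EGF libraries, 0.917 to 1.05 in siEGFR libraries, 0.928 to 1.12 in siNC libraries and 0.404 to 0.505 in control libraries. The almonertinib ratios thus lay above every EGF and control ratio and overlapped the siEGFR and siNC ratios. This ratio was formed after the values were seen and is given with no test.

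The 6 subunits of the MCM2-7 helicase rose together with EGF, by 0.58 (MCM7) to 1.33 (MCM5), and in siNC by 1.12 (MCM7) to 1.89 (MCM5). With almonertinib they parted: MCM3, MCM4 and MCM6 fell, and MCM2, MCM5 and MCM7 had values of -0.05, -0.20 and 0.13. MCM2 had 14.5, 15.2 and 11.04 FPKM in almonertinib and 24.4, 29.1 and 24.4 FPKM in EGF libraries, against 11.7, 16.6 and 13.98 FPKM in control libraries. In siEGFR libraries it had 52.1, 54.3 and 53.7 FPKM, against 53.5, 57.1 and 51.2 FPKM in siNC libraries. The almonertinib and control libraries of MCM2 overlapped, with almonertinib 3 and control 1 the lowest of their groups. MCM6 had 5.94, 4.78 and 6.06 FPKM in almonertinib and 15.2, 13.3 and 16.6 FPKM in EGF libraries, against 8.23, 7.26 and 8.10 FPKM in control libraries. It had 27.02, 27.1 and 26.2 FPKM in siEGFR libraries, against 23.3, 24.1 and 23.9 FPKM in siNC libraries. Every almonertinib library lay below every control library (log2 change -0.43 ± 0.09, adjusted p = 0.00274). The calls for MCM3, MCM4 and MCM6 were lost in the fit of the 2 groups alone, that for MCM3 also with median-ratio scaling and limma-voom. MCM7 was the most abundant subunit in every group, with a mean of 51.2 ± 2.61 FPKM in almonertinib and 46.8 ± 4.72 FPKM in control libraries.

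Of the 6 genes that turn loaded MCM2-7 into a working helicase, all rose with EGF and in siNC, and MCM10 and CDC45 fell with almonertinib. CDC45, a subunit of the moving helicase, had 1.23, 1.20 and 1.22 FPKM in almonertinib and 9.72, 12.1 and 11.1 FPKM in EGF libraries, against 1.86, 2.70 and 2.42 FPKM in control libraries. It had 18.6, 20.4 and 20.2 FPKM in siEGFR libraries, against 17.6, 18.4 and 17.7 FPKM in siNC libraries. The 3 almonertinib values were closely spaced and below all control values (log2 change -0.58 ± 0.09, adjusted p = 0.000568). With EGF it had the largest change of the 50 genes on the log2(FPKM + 1) scale (log2 change 1.85 ± 0.09, adjusted p = 4.87e-09). In mean FPKM CDC45 rose 4.72-fold, and MCM10 (5.28-fold), RRM2 (4.93-fold) and CDC6 (4.74-fold) rose further. MCM10, which helps to start the helicase, averaged 0.146 ± 0.0164 FPKM in almonertinib and 0.400 ± 0.0759 FPKM in control libraries, 36.6% of the control level. Its log2 change of -0.29 is smaller than this because the added 1 FPKM dampens changes of low genes. The GINS subunits GINS1, GINS2 and GINS4 had values of -0.23, -0.15 and -0.25 with almonertinib and were not past the threshold. GINS3 moved least of the complex, by 0.35 with EGF and 0.70 in siNC.

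**Figure D4:**
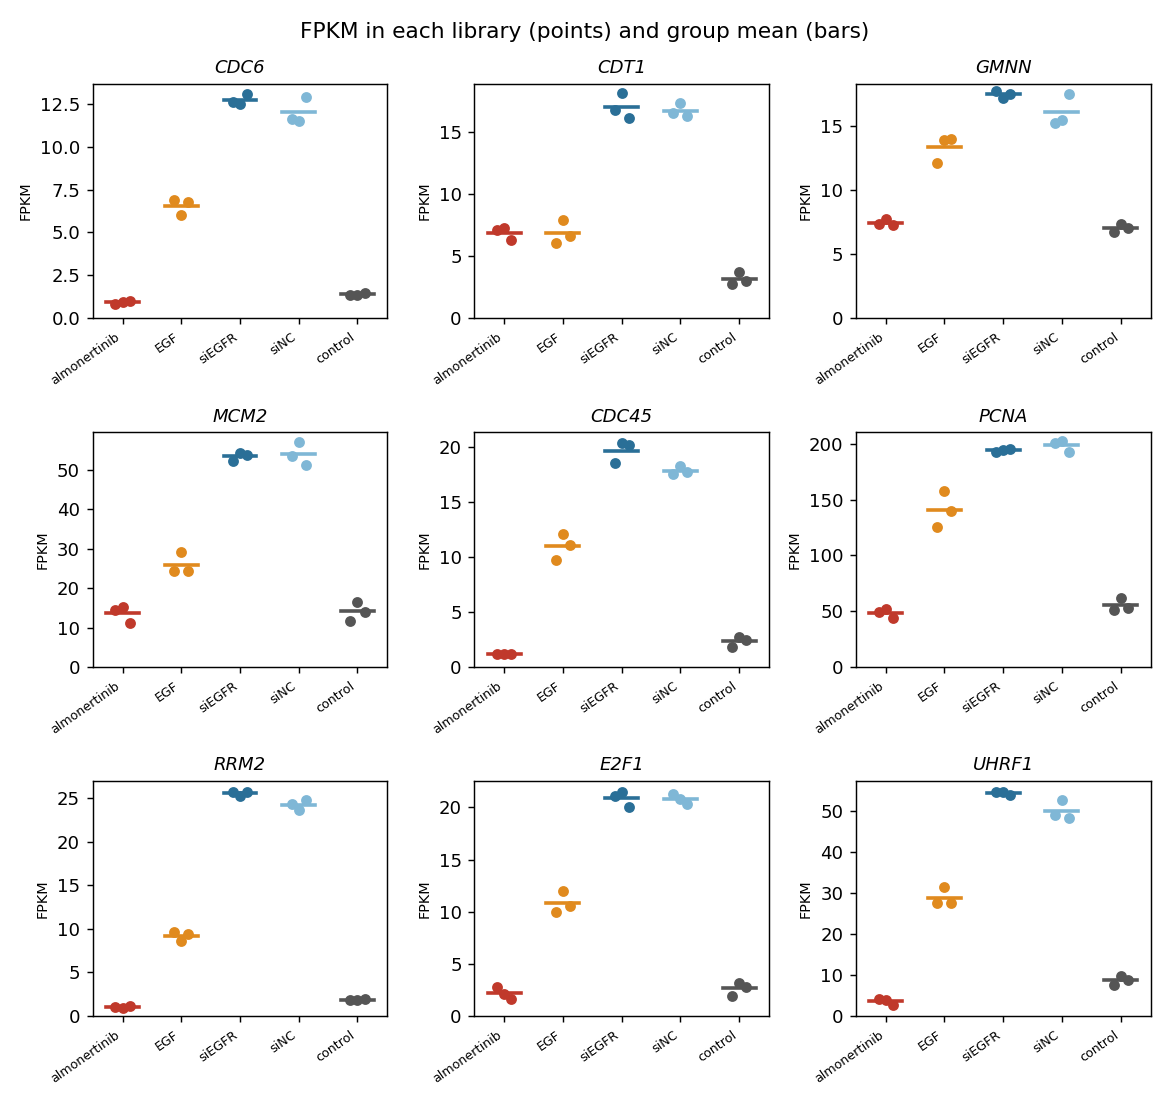
FPKM of 9 genes in each library (points) with group means (bars), groups from left to right almonertinib, EGF, siEGFR, siNC and control. CDT1 is the panel in which almonertinib points lie with the EGF points; in CDC6, CDC45, RRM2 and UHRF1 almonertinib points lie below the control points.

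Of the 20 genes of the fork, 19 rose with EGF and 18 in siNC, by a median log2 change of 0.64 and 1.10. Only POLA1 and POLE2, subunits of polymerases alpha and epsilon, fell with almonertinib, at -0.24 and -0.28, with adjusted p of 0.0371 and 0.0395. POLA1 was called in 10 and POLE2 in 11 of 18 alternative settings. Both calls were lost at an adjusted p under 0.01, with a filter of 0.1 FPKM or no filter, and in the fit of the 2 groups alone. They were also lost when almonertinib 1, almonertinib 2 or control 1 was left out, and that for POLA1 without control 3. PCNA, the sliding clamp that tethers polymerases to DNA, had 48.9, 52.1 and 43.8 FPKM in almonertinib and 125, 158 and 139 FPKM in EGF libraries, against 51.5, 62.2 and 53.3 FPKM in control libraries. It had 193, 194 and 195 FPKM in siEGFR libraries, against 201, 202 and 192 FPKM in siNC libraries. EGF libraries lay well above control (log2 change 1.32 ± 0.09, adjusted p = 1.04e-07), while almonertinib libraries overlapped control (log2 change -0.20 ± 0.09, adjusted p = 0.109). FEN1, the nuclease that trims Okazaki fragments, rose with EGF by 1.37 ± 0.06. The 3 subunits of replication protein A, which coats single strands, moved little: RPA1 rose by 0.17, RPA2 by 0.47 and RPA3 by 0.47 with EGF. The clamp loader was uneven too, with RFC2, RFC3, RFC4 and RFC5 up by 0.77 to 0.99 with EGF and RFC1 not past the threshold. RFC1 had 6.78, 6.23 and 9.63 FPKM in almonertinib and 12.7, 9.57 and 11.7 FPKM in EGF libraries, against 11.1, 6.97 and 8.13 FPKM in control libraries, so that control 1 exceeded an EGF library. RFC1 was called in EGF against control in 7 of 18 alternative settings. These were median-ratio scaling, the replicate block, limma-voom, leaving out control 1 or EGF 2, and both joint omissions of libraries. POLD2 had the highest mean of the 50 genes in control libraries, 66.7 ± 11.4 FPKM, and in almonertinib libraries, 59.7 ± 4.21 FPKM. RFC1 and POLD2 were picked out after their values were seen.

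Nucleotide supply held the gene with the largest difference between siNC and control on the log2(FPKM + 1) scale. In mean FPKM the difference was larger for MCM10, 14.4-fold. RRM2, the small subunit of ribonucleotide reductase, which makes deoxyribonucleotides, had 1.01, 0.881 and 1.17 FPKM in almonertinib and 9.60, 8.55 and 9.36 FPKM in EGF libraries, against 1.82, 1.86 and 1.91 FPKM in control libraries. In siEGFR libraries it had 25.7, 25.2 and 25.7 FPKM, against 24.3, 23.6 and 24.8 FPKM in siNC libraries. Almonertinib libraries lay below control, control below EGF and EGF below both siRNA groups, with no overlap between these levels. RRM2 fell with almonertinib (log2 change -0.50 ± 0.06, adjusted p = 6.31e-05), rose with EGF (log2 change 1.83 ± 0.06, adjusted p = 1.68e-10) and was 13.0-fold higher in mean FPKM in siNC than in control (log2 change 3.14 ± 0.06, adjusted p = 1.91e-12). Its partner RRM1, the large subunit, was flatter, at -0.17 ± 0.08 with almonertinib (not past the threshold), 0.79 ± 0.08 with EGF and 0.96 ± 0.08 in siNC. TYMS, which makes thymidylate, fell with almonertinib (log2 change -0.40 ± 0.13, adjusted p = 0.0401), a call that held in 8 of 18 alternative settings. In the GENCODE v29 annotation 39.1% of TYMS exon bases lie opposite exons of ENOSF1. Whether reads were counted by strand is not given in the sources used here, so reads in the shared bases cannot be assigned to 1 of the 2 genes. ENOSF1 averaged 4.95 FPKM and reached at most 5.61 FPKM in a library. RRM2 shares 20.2% of its exon bases with a longer gene model on its own strand. TK1, thymidine kinase, and DUT, the dUTPase, were not past the threshold with almonertinib and rose with EGF, by 1.21 and 0.34. The EGF call of DUT (adjusted p = 0.0439) held in 10 of 18 alternative settings, that of TK1 in all 18.

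The 4 genes of G1/S control all rose with EGF, and none was called with almonertinib. E2F1 and CCNE1 rose in siNC, while for CCNE2 and E2F2 the filter fixed that direction. E2F1, an activating E2F factor, had 2.77, 2.14 and 1.59 FPKM in almonertinib and 9.93, 12 and 10.6 FPKM in EGF libraries, against 1.96, 3.19 and 2.81 FPKM in control libraries. It had 21.1, 21.5 and 20 FPKM in siEGFR libraries, against 21.3, 20.8 and 20.3 FPKM in siNC libraries. Almonertinib and control libraries overlapped (log2 change -0.21 ± 0.14, adjusted p = 0.26), and EGF libraries lay apart (log2 change 1.71 ± 0.14, adjusted p = 3.99e-07). Its printed promoter carries 2 E2F matches, at 33 and 20 bases before the start. CCNE1, cyclin E1, had 2.26, 2.87 and 2.26 FPKM in almonertinib and 4.86, 4.14 and 4.43 FPKM in EGF libraries, against 2.68, 2.33 and 2.41 FPKM in control libraries. It had 6.98, 7.34 and 6.96 FPKM in siEGFR libraries, against 6.25, 6.71 and 7.07 FPKM in siNC libraries. The almonertinib and control libraries of CCNE1 overlapped (log2 change -0.01 ± 0.08, adjusted p = 0.95), and it rose with EGF (log2 change 0.66 ± 0.08, adjusted p = 1.41e-05). CCNE2, cyclin E2, had 0.136, 0.0819 and 0.136 FPKM in almonertinib and 0.639, 0.423 and 0.659 FPKM in EGF libraries, against 0.226, 0.168 and 0.278 FPKM in control libraries. In siEGFR libraries it had 1.85, 1.83 and 1.71 FPKM, against 1.88, 1.55 and 1.92 FPKM in siNC libraries. All almonertinib values of CCNE2 lay below all control values, with no call (log2 change -0.13 ± 0.08, adjusted p = 0.225). In GENCODE v29, 37.0% of CCNE2 exon bases lie opposite exons of INTS8, which averaged 4.13 FPKM, so its low values are uncertain. Over the 50 genes, 17 have some exon overlap of this kind.

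Chromatin replication held the gene that fell most with almonertinib on the log2(FPKM + 1) scale. In mean FPKM, MCM10 fell further, to 36.6% of control, at 0.146 against 0.400 FPKM. UHRF1, which brings the maintenance methyltransferase DNMT1 to newly copied DNA, had 4.16, 4 and 2.75 FPKM in almonertinib and 27.5, 31.6 and 27.5 FPKM in EGF libraries, against 7.61, 9.70 and 8.74 FPKM in control libraries. It had 54.6, 54.8 and 54.04 FPKM in siEGFR libraries, against 49.1, 52.8 and 48.4 FPKM in siNC libraries. Every almonertinib library lay below every control library, and the mean was 41.9% of the control mean (log2 change -1.07 ± 0.11, adjusted p = 2.97e-05). With EGF it rose 3.33-fold in mean FPKM (log2 change 1.63 ± 0.11, adjusted p = 1.03e-07). CHAF1A and CHAF1B, subunits of the histone chaperone that follows the fork, had values of -0.09 and -0.06 with almonertinib, not past the threshold, and rose by 1.06 and 0.50 with EGF. SLBP, which handles histone messenger RNA, rose by 0.29 ± 0.10 with EGF (adjusted p = 0.0316), a call that held in 12 of 18 alternative settings. DNMT1, which is outside the 50 genes, fell with almonertinib by 0.37 ± 0.05 and rose with EGF by 0.92 ± 0.05.

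Drug and ligand were also set against each other with no control library in the comparison. In almonertinib against EGF, 49 genes fell and none rose, where 62.6% of all tested genes were called and 32.6% fell, with a median log2 change of -0.86. In 47 genes every almonertinib library lay below every EGF library, as in 31.2% of all tested genes. On the log2(FPKM + 1) scale UHRF1 had the widest gap (-2.70 ± 0.11), followed by CDC45 (-2.43 ± 0.09) and RRM2 (-2.33 ± 0.06). In mean FPKM the gap was widest for MCM10, at 6.93% of the EGF level. CDT1 was the exception at 0.01 ± 0.10 (adjusted p = 0.947).

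Whether the drug and the siRNA moved these genes differently was tested as the almonertinib effect minus the siEGFR effect, each against its own control. The difference was negative for 12 genes and positive for 1 at an adjusted p under 0.05, where 13.7% of all tested genes were called (7.71% negative and 5.95% positive). The median difference was -0.21, against -0.07 over all tested genes. There were 6 genes called in all 24 alternative settings: CDT1 (0.91 ± 0.14), UHRF1 (-1.19 ± 0.16), CDC45 (-0.71 ± 0.13), MCM6 (-0.59 ± 0.12), RRM2 (-0.58 ± 0.08) and ORC6 (-0.57 ± 0.08). The 2 effects start from control groups of very different level: for RRM2, siNC libraries averaged 24.2 ± 0.587 FPKM and control libraries 1.86 ± 0.0438 FPKM. EGFR itself fell in both arms, and its difference of effects was 0.23 ± 0.16 (adjusted p = 0.355).

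**Figure D5:**
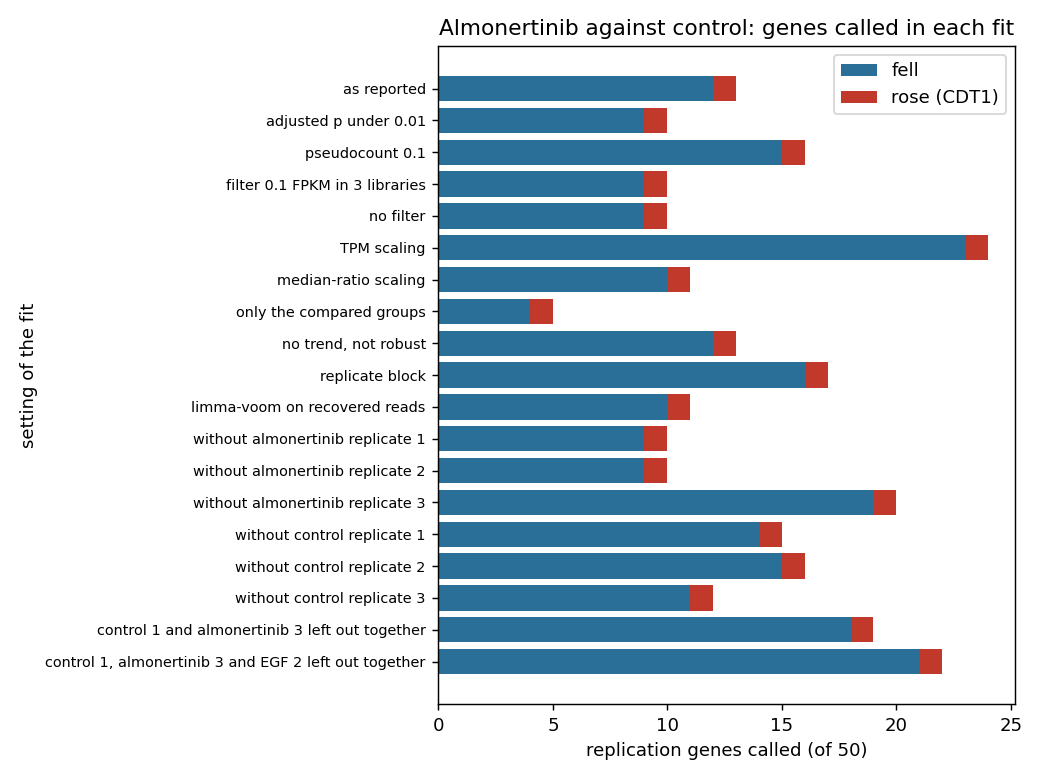
Number of the 50 genes called in almonertinib against control in the fit as reported and in 18 alternative settings (bars, blue for genes that fell, red for CDT1, which rose). The count runs between 5, with only the 2 groups in the fit, and 24, with each library scaled to the same sum.

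Other genes of the same pathways, a list of 62 of which 61 were tested, were read from the same fits. With almonertinib 17 of 61 fell and 2 rose, with EGF 40 rose and 4 fell, in siEGFR against siNC 1 rose and none fell, and in siNC against control 48 rose and 5 fell. Of all tested genes, 18% fell and 12.1% rose with almonertinib, 22% rose with EGF, 5.46% were called in siEGFR against siNC, and 34.4% rose in siNC. With almonertinib the share called in either direction was 31.1% of the 61 genes, near the 30.1% of all tested genes. By direction, 27.9% of the 61 fell and 3.28% rose, against 18% and 12.1% of all tested genes. The median log2 changes were -0.23, 0.43, 0.06 and 0.97. By role, the genes that rose with EGF were 10 of 12 origin and firing factors, 8 of 13 fork and checkpoint factors, 4 of 6 chromatin assembly factors, 5 of 7 genes of nucleotide supply and 13 of 23 genes of G1/S control. In the same order, 2, 3, 2, 4 and 6 genes of these lists fell with almonertinib. CTPS1, which makes CTP, fell with almonertinib by 0.58 ± 0.05 (adjusted p = 1.4e-05). MYBL2, an E2F target and transcription factor of the cell cycle, fell with almonertinib by 0.65 ± 0.07 and rose with EGF by 1.84 ± 0.07. CDKN1A, the CDK inhibitor p21, rose in both, by 0.34 ± 0.07 with almonertinib and by 0.94 ± 0.07 with EGF. CDKN1B, the CDK inhibitor p27, fell with EGF by 0.65 ± 0.19 and had a value of 0.02 ± 0.19 with almonertinib. The gene that rose in siEGFR was TFDP1, the dimer partner of E2F factors, by 0.28 ± 0.06 (adjusted p = 0.0132).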

How the data were processed

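Messenger RNA of NCI-H1975 cells was sequenced as paired ends after oligo(dT) enrichment, per the labels' protocols. The authors deposited unrounded FPKM values for 61248 loci in 15 libraries, and HISAT2, featureCounts, DESeq2 and hg19 are named, with no version, in the submitters' processing notes. Symbols came from a list of gene names by Ensembl ID and matched 60463 loci. Because FPKM steps are whole multiples of 1 read, read totals of 18009903 to 34908302 were recovered, with 100.0% of positive values whole within 0.01 reads. At these depths 1 read in a gene of 1 kilobase is worth 0.0286 to 0.0555 FPKM.

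Values were tested as log2(FPKM + 1) with limma 3.58.1 in R 4.3.3, with intensity trend and robust moderation, in a single fit of all 15 libraries with 10 residual degrees of freedom. Genes needed at least 1 FPKM in at least 3 libraries (14999 genes), and p-values were two-sided and adjusted by Benjamini-Hochberg within each comparison over all of them. The fit was first run on simulated data with the same spread in every group. That run cannot show how the fit behaves with the unequal spread of these groups, and no result here rests on it. Alternatives were a pseudocount of 0.1, other filters, TPM and median-ratio scaling, a threshold of 0.01, the compared groups alone, no trend, a replicate block, limma-voom on recovered reads and leaving out libraries. Leaving out the libraries that stand apart together was chosen after seeing the data. Promoter motifs were counted with Python 3.11.15 in RefSeq sequences, exon overlaps in GENCODE v29, which is on another build than the values and served only to find overlapping genes.

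The 50 genes and all lists were chosen with earlier results of these data known. Values per library are given for EGFR, for the 5 genes with the largest called change in each direction of a comparison, where the higher group averaged 1 FPKM or more, for calls against the majority, and for E2F1, CCNE1, CCNE2, CDC6, CDT1, GMNN, PCNA, MCM2 and RRM2. A gene named for another reason is marked as such or given by its values.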

Additional observations from a re-analysis of the deposited data

How the results depend on the processing

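No gene changed direction while called in any comparison and setting. Shares in brackets are those of all tested genes called in the same setting. In almonertinib against control, 24 of the 50 genes were called with TPM scaling (33.1%), which moved the median of all tested genes to -0.15, against -0.06 as reported. There were 5 with the compared groups alone (5.71%), 10 to 20 when 1 library was left out (19.0% to 37.4%), with 20 as the count without almonertinib 3 (37.2%), 19 without control 1 and almonertinib 3 (26.3%), and 22 without these and EGF 2 (35.3%). CDT1, UHRF1, CDC45, RRM2 and ORC6 were called in all 18 settings. In siEGFR against siNC, 11 genes were called with the compared groups alone (20.5%), 7 without control 1, almonertinib 3 and EGF 2 (14.7%), and 0 each time a single library was left out (2.94% to 3.5%). For the almonertinib effect minus the siEGFR effect, 8 genes were called at an adjusted p under 0.01 (5.93%), 23 without those 3 libraries (27.0%) and 9 to 19 with 1 left out (8.92% to 20.2%); with TPM scaling the median of all tested genes was -0.18, against -0.07. With 1 library left out, counts were 47 to 50 for EGF against control (41.8% to 50.4%), 48 to 49 for siNC against control (59.8% to 67.7%) and 48 to 49 for almonertinib against EGF (56.0% to 64.9%). In EGF against control 46 of 49 calls, and in siNC against control all 48, held in all 18 settings. The other EGF calls, RPA1, SLBP and DUT, held in 17, 12 and 10 of 18. The causes were not tested.

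The labels do not say that equal replicate numbers share a culture or a day, and correlations between equally numbered libraries of compared groups ran between -0.17 and 0.60. With the replicate number as a block, the counts were 17 for almonertinib against control (37.4%), 50 for EGF against control (53.6%), 0 for siEGFR against siNC (6.91%), 48 for siNC against control (69.0%), 49 for almonertinib against EGF (66.2%) and 16 for the difference of effects (19.9%). Depth limits the lowest genes: 8 of the 50 had fewer than 3 almonertinib and control libraries at 1 FPKM.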

Other observations

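Genes of mitosis and general proliferation, outside the 50, moved in the same comparisons as the replication genes. Of 10 such genes, 7 fell with almonertinib, all 10 rose with EGF, none was called in siEGFR against siNC, and all 10 rose in siNC against control, with median log2 changes of -0.40, 1.42, 0.13 and 2.15. Of all tested genes, 18% fell with almonertinib, 22% rose with EGF, 5.46% were called in siEGFR against siNC and 34.4% rose in siNC against control. MKI67, the antigen of cycling cells, fell with almonertinib by 0.72 ± 0.14 (adjusted p = 0.00254) and rose with EGF by 1.52 ± 0.14. TOP2A, CDK1 and PLK1 had values of -0.55, -0.40 and -0.23 with almonertinib and were not past the threshold. The part of a changed share of cycling cells in the results on replication genes was not tested.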
